A study of Mus musculus with 4 samples.

Results

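The genes described here encode the proteins of the cytosolic ribosome, and 82 such genes were found among the 41388 genes listed in each count table. A gene was taken if its identifier matched a protein-coding gene of GENCODE mouse release M21 with a ribosomal protein symbol (Rps, Rpl or Rplp with its number, or Rpsa, leaving out the Rps6k kinases) and if it had at least 100 counts over the 4 libraries. Of 84 genes with such a symbol, 2 fell below that minimum. Rpl23a, just inside it, had 105 counts in all, and Rpl3l, just outside it, had 35. The RNA came from Mnk3, a mouse cell line used as a model of group 3 innate lymphoid cells, which are lymphocytes of mucosal tissue that respond to IL-1b and IL-23 by making IL-22. In 2 libraries the cells had been stimulated with IL-1b and IL-23, each at 10 ng/ml for about 16 h, and in the 2 control libraries the cells had been left untreated. Ribosomal RNA was depleted from the total RNA before sequencing. In each group the library whose title ends in rep1 is called library 1 and the library with no number in its title is called library 2.

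A ribosome has a small subunit, which reads the mRNA, and a large subunit, which joins amino acids and passes the growing chain out through a tunnel. Each holds 1 copy of nearly every one of its proteins, and cells that grow or divide make many new ribosomes. In mammals the mRNAs of ribosomal proteins begin with a run of pyrimidines, the terminal oligopyrimidine or TOP motif, through which mTOR signalling controls their translation, and MYC and GABP are among the factors known to act on the genes. These genes also left many processed pseudogenes in the mouse genome, so that a sequencing read from 1 of them can match several places.

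The libraries held 26723058 and 23047723 counts in stimulated cells and 29078765 and 28516816 counts in control cells. The 10 marker genes of ILC3 were all detected, and summed to 6004 and 4272 CPM (counts scaled to library size) in stimulated libraries and 3748 and 3463 CPM in controls. Markers of T cells summed to 15.2 and 11.9 CPM in stimulated libraries and 24.8 and 20.2 CPM in controls, and 3 NK or ILC1 markers to 57.1 and 96.9 CPM in stimulated libraries and 207 and 236 CPM in controls. The B cell, ILC2, myeloid, stromal, epithelial and erythroid lists each summed to less than 10 CPM in every library, and 2 of the 5 myeloid markers (Lyz2 and Cd14) had no count. The part of these shifts in the results below was not tested.

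Nearly the whole set of ribosomal protein genes was higher in stimulated cells. Of the 82 genes, 62 rose, 1 fell and 19 did not pass the test (edgeR, Benjamini-Hochberg adjusted p under 0.05). Among all 13838 genes tested, 17.5% were called higher and 18.3% lower. The fitted change was above 0 for 81 of the 82 genes. Its median over the set was 1.03 on the log2 scale, a 2.04-fold rise, with quartiles at 0.80 and 1.29, against a median of -0.016 over all genes tested. The gene that fell was Rpl39l. A rise of at least 1 on the log2 scale was found for 44 ribosomal protein genes, which is 53.7% of them, against 9.18% of all genes tested. In bulk RNA, more of these mRNAs per cell and less of other RNA per cell cannot be told apart.

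The 2 stimulated libraries lay above both controls for 79 genes, in CPM scaled with TMM, the unit of all single-gene levels below. For 1 gene they lay below both, and for Rps14 and Rps16 the groups overlapped. Over all genes tested, 34.4% had both stimulated libraries above both controls and 36.3% had both below. Within library 1 of each group the median log2 ratio of stimulated to control was 0.91, and within library 2 it was 1.18. In both, 81 of the 82 genes were higher in the stimulated library, against 41.3% of all genes tested. Control library 1 weighed most on the size of the change, and the median was 1.23 without it.

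**Figure D1:**
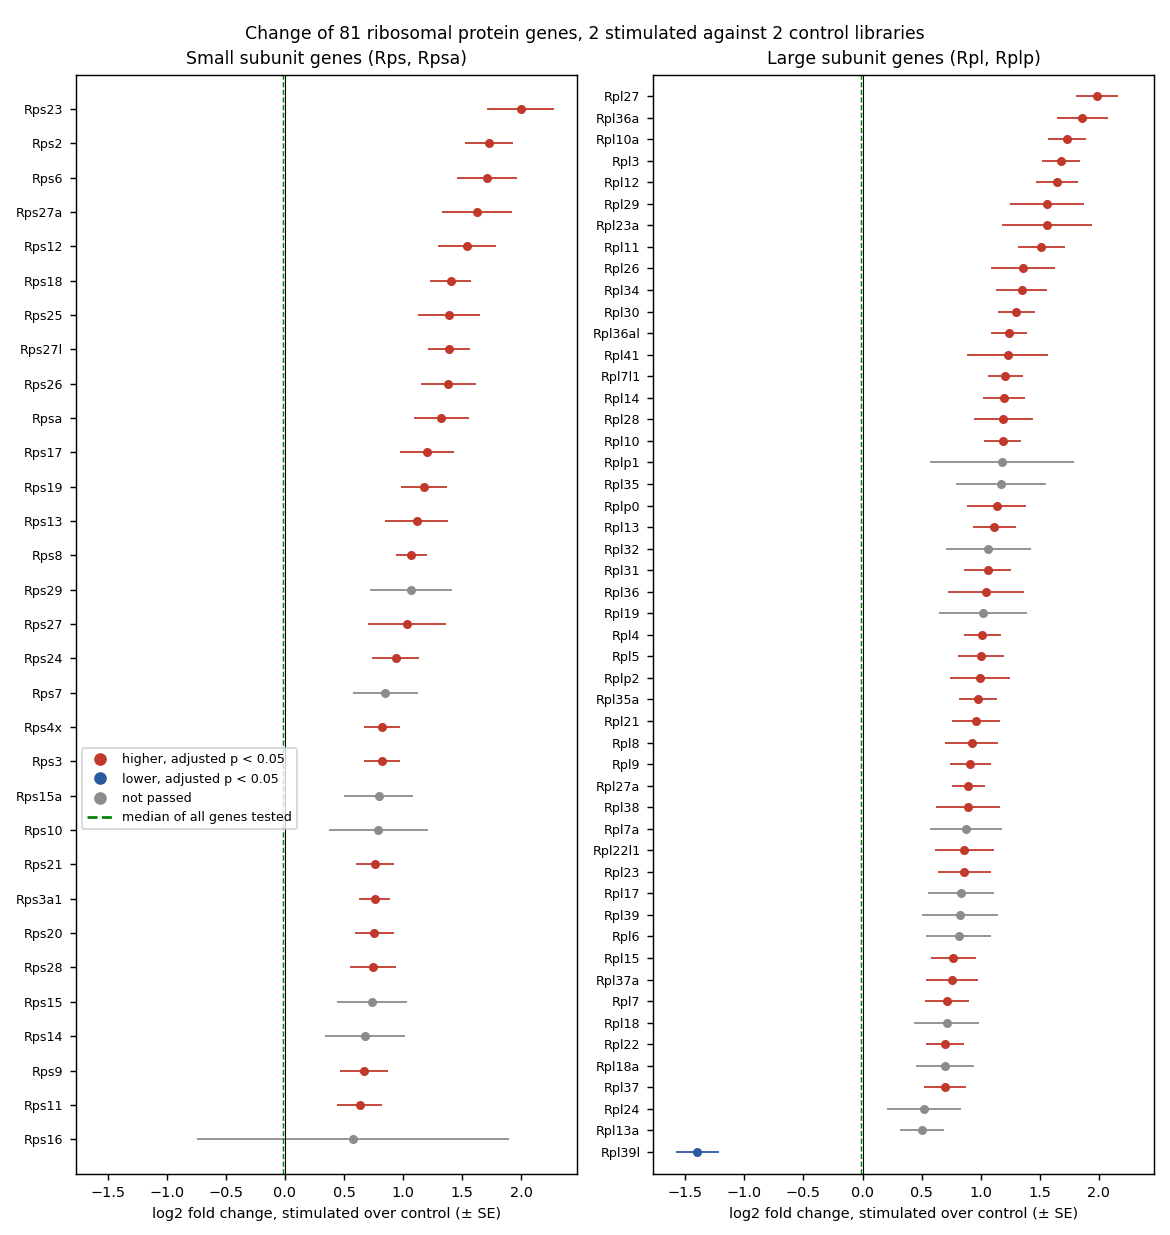
Log2 fold change of stimulated over control cells for 81 of the 82 ribosomal protein genes, as points with the standard error as bars, with small subunit genes on the left and large subunit genes on the right. Colours give the call at an adjusted p of 0.05 and the dashed line the median of all genes tested, and every point shown but that of Rpl39l lies above 0. The gene not drawn is not reported here.

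The set took up a larger part of the RNA counted in stimulated cells. Ribosomal protein genes held 1.90% of the counts in stimulated library 1 (95% Wilson interval 1.894 to 1.905) and 1.63% in stimulated library 2 (1.624 to 1.634), against 1.14% in control library 1 (1.137 to 1.145) and 0.850% in control library 2 (0.8465 to 0.8532). Both stimulated libraries stood above both controls. The means were 1.76% ± 0.19 in stimulated and 0.996% ± 0.21 in control cells (SD, n = 2 each), a ratio of 1.77. The exact two-sided permutation test gave p = 0.333, which is the smallest p that 2 against 2 libraries can give. Small subunit genes held 0.697% ± 0.071 of the counts in stimulated and 0.400% ± 0.083 in control cells, and large subunit genes held 1.07% ± 0.12 in stimulated and 0.596% ± 0.12 in control cells (SD, n = 2 each).

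The counts were concentrated in few genes. Rpl8 alone held 13.8% of the counts of the set, and the 10 most counted genes held 64.4%. Without those 10 genes the ratio of the shares was 1.84. Genes encoded in mitochondria, which are transcribed apart from the nucleus, held 0.469% ± 0.023 of the counts in stimulated and 0.512% ± 0.21 in control libraries (SD, n = 2 each), with overlapping groups.

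**Figure D2:**
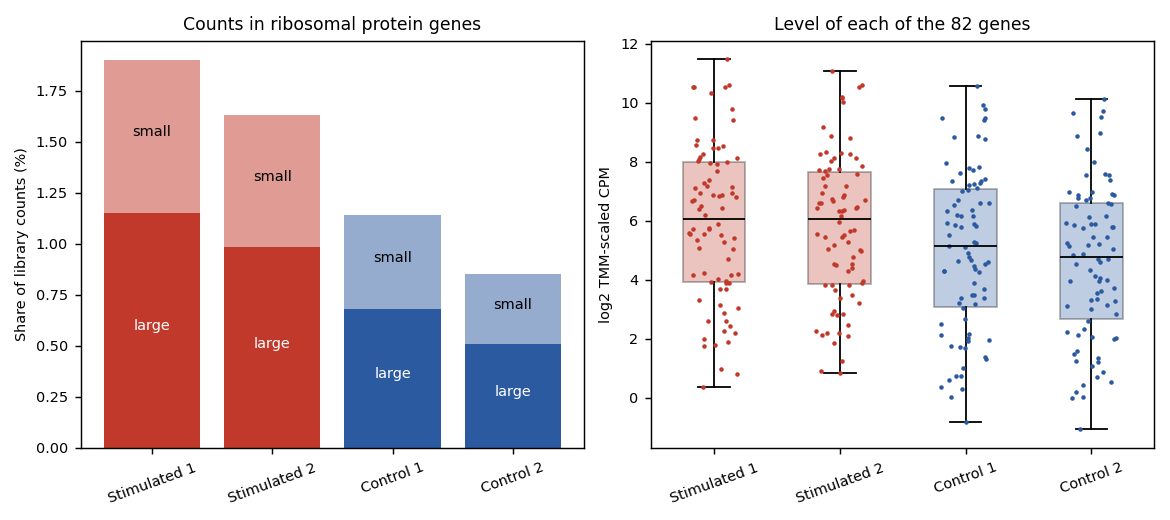
Left, share of each library's counts in ribosomal protein genes in percent, with large subunit genes below and small subunit genes above, and right, log2 TMM-scaled CPM of each of the 82 genes as points over boxes of the quartiles with whiskers to the lowest and highest gene. The stimulated libraries reach 1.90% and 1.63%, and the control libraries 1.14% and 0.850%.

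Among the 31 small subunit genes, 24 rose, none fell and 7 did not pass, with a median log2 change of 1.03. Rps23, whose protein sits at the decoding centre, had 4.63 and 4.38 CPM in stimulated libraries and 1.23 and 1.02 CPM in controls. Its log2 change of 1.995 ± 0.28 (SE) was the highest of the set (edgeR adjusted p = 0.0026). The stimulated values lay close together and far above both controls. Rps2, at the entry of the mRNA channel, had 14.7 and 14.4 CPM in stimulated libraries and 4.41 and 4.37 CPM in controls, a log2 change of 1.73 ± 0.20. Rps6, the best-known substrate of the S6 kinases, had 9.98 and 9.41 CPM in stimulated libraries and 3.38 and 2.53 CPM in controls, a log2 change of 1.71 ± 0.25 (edgeR adjusted p = 0.0031). In both genes the replicates differed far less than the groups. Rps27a, made as a fusion with ubiquitin, had 8.99 and 15.1 CPM in stimulated libraries and 3.78 and 3.997 CPM in controls, a log2 change of 1.63 ± 0.30. Rps12 had 7.32 and 6.96 CPM in stimulated libraries and 2.59 and 2.32 CPM in controls, a log2 change of 1.54 ± 0.24. Of their 50-base coding stretches, the share also found in a gene elsewhere was 51.7% for Rps23, 79.0% for Rps2 and 84.6% for Rps6. For Rps27a it was 71.9% and for Rps12 90.1%.

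Levels differed widely within the small subunit. Per kilobase of listed length, Rps26, whose protein lines the exit of the mRNA channel, was the highest of the small subunit, at 849 ± 166 CPM per kb in stimulated cells against 326 ± 85 CPM per kb in controls (SD, n = 2 each). Its log2 change was 1.38 ± 0.23. Rps3, which binds the entering mRNA and is also known as a partner of NF-kB p65, had 1566 and 1487 CPM in stimulated libraries and 880 and 853 CPM in controls, a log2 change of 0.82 ± 0.15 (edgeR adjusted p = 0.0070). Rps4x, carried on the X chromosome, rose by a log2 change of 0.82 ± 0.16. Rpsa, also known as a laminin receptor, had 19.0 and 27.1 CPM in stimulated libraries and 8.20 and 10.2 CPM in controls, a log2 change of 1.32 ± 0.23 (edgeR adjusted p = 0.0059). All 4 had both stimulated libraries above both controls, as did 79 of the 82 genes of the set and 34.4% of all genes tested.

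Rps16 was singled out after its values were seen, because its libraries did not sort by group. It had 53.01 and 10.4 CPM in stimulated libraries and 35.4 and 7.21 CPM in controls, so library 1 was high and library 2 low in both groups. Within library 1 of each group its log2 ratio of stimulated to control was 0.58, and within library 2 it was 0.53. Its log2 change was 0.58 ± 1.32 (edgeR adjusted p = 0.780), and was -0.16 without control library 2 and -1.04 without stimulated library 1. Rplp1, Rpl35 and Rps10 were the other genes with more than 2-fold between the libraries of a group, and none of them passed the test. Stimulated library 1 lay above stimulated library 2 for 59 of the 82 genes, and control library 1 above control library 2 for 70.

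Among the 43 large subunit genes, 32 rose, none fell and 11 did not pass, with a median log2 change of 1.01. Rpl27 had 47.5 and 43.5 CPM in stimulated libraries and 12.9 and 10.1 CPM in controls, a log2 change of 1.99 ± 0.18 (edgeR adjusted p = 0.00061). Rpl10a, the protein of the mobile stalk at the exit site for tRNA, had 91.4 and 88.0 CPM in stimulated libraries and 29.8 and 24.2 CPM in controls, a log2 change of 1.73 ± 0.16. Rpl3, which reaches towards the centre where peptide bonds form, had 73.4 and 71.7 CPM in stimulated libraries and 25.1 and 20.2 CPM in controls, a log2 change of 1.68 ± 0.16. In these 3 genes the lower stimulated library was above the higher control by a wide margin. Rpl12, at the base of the acidic stalk, had 60.1 and 51.1 CPM in stimulated libraries and 19.8 and 15.8 CPM in controls, a log2 change of 1.64 ± 0.18. Rpl10, which is fitted late in the assembly of the large subunit, had 52.6 and 62.9 CPM in stimulated libraries and 24.4 and 26.4 CPM in controls, a log2 change of 1.18 ± 0.16. Rpl12 and Rpl10 were again apart by group. Rpl29 had 3.37 and 4.82 CPM in stimulated libraries and 1.29 and 1.47 CPM in controls, a log2 change of 1.56 ± 0.31. The share of 50-base coding stretches also found in a gene elsewhere was 64.1% for Rpl27, 88.1% for Rpl10a and 85.6% for Rpl3. For Rpl12 it was 49.0%, for Rpl10 92.1% and for Rpl29 66.6%.

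Rpl23a, whose protein lies where the new chain leaves the ribosome, had the lowest level of the set, 1.83 ± 0.41 CPM per kb in stimulated and 0.615 ± 0.072 in control cells (SD, n = 2 each). Its log2 change was 1.56 ± 0.38 (edgeR adjusted p = 0.019), and the adjusted p was 0.075 without control library 2 and 0.085 without stimulated library 2. The other 4 genes lowest per kilobase were Rpl24, Rpl7a, Rpl26 and Rpl19. Of these, Rpl26 rose by a log2 change of 1.36 ± 0.27, while Rpl24 (0.52 ± 0.31), Rpl7a (0.88 ± 0.31) and Rpl19 (1.02 ± 0.37) did not pass. Rpl7a passed without control library 1 (edgeR adjusted p = 0.040). Rpl19 passed without control library 2 (edgeR adjusted p = 0.030) and without stimulated library 1 (edgeR adjusted p = 0.042).

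Rpl8 had the highest level of the set, at 2930 ± 549 CPM per kb in stimulated and 1542 ± 342 in control cells (SD, n = 2 each). Its values were 2860 and 2190 CPM in stimulated libraries and 1538 and 1121 CPM in controls, a log2 change of 0.93 ± 0.22 (edgeR adjusted p = 0.019). The groups did not overlap, but the adjusted p was 0.067 without control library 2 and 0.069 without stimulated library 1. Rpl4, which lines the exit tunnel, had 1505 and 1562 CPM in stimulated libraries and 716 and 802 CPM in controls, a log2 change of 1.01 ± 0.16 (edgeR adjusted p = 0.0036). Rpl13a, also known in human cells as a part of the GAIT complex that represses translation of inflammatory mRNAs, had 1282 and 1161 CPM in stimulated libraries and 980 and 741 CPM in controls. Its log2 change of 0.51 ± 0.19, the smallest of the values above 0, did not pass (edgeR adjusted p = 0.076), and it passed without control library 1 (0.037). The levels of the set spanned an 1828-fold range per kilobase. Of the 50-base coding stretches, 7.86% for Rpl8 and 16.5% for Rpl4 were also found in a gene elsewhere, against 82.6% for Rpl23a, the lowest. The part of such sharing in this range was not tested.

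Rpl5, Rpl11 and Rpl23 encode proteins that, when not built into ribosomes, can bind MDM2, the ligase that degrades p53. Rpl11 had 14.9 and 15.6 CPM in stimulated libraries and 5.67 and 5.02 CPM in controls, a log2 change of 1.51 ± 0.20. Rpl5 had 17.8 and 23.03 CPM in stimulated libraries and 10.5 and 9.84 CPM in controls, a log2 change of 1.004 ± 0.196. Rpl23 had 280 and 205 CPM in stimulated libraries and 156 and 111 CPM in controls, a log2 change of 0.86 ± 0.23 (edgeR adjusted p = 0.027). All 3 rose, and Rpl23 missed the threshold without control library 2 (edgeR adjusted p = 0.065) and without stimulated library 1 (0.096). Of 5 genes of the p53 pathway, 1 was called higher, a share near the 17.5% over all genes tested. It was Mdm2 itself, with a log2 change of 0.59 ± 0.14. Its adjusted p was 0.019, and 0.093 without control library 1 and 0.079 without stimulated library 1. Bax, a target of p53, changed by 0.21 ± 0.13 and did not pass.

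The acidic stalk, which draws elongation factors to the ribosome, is made of the products of Rplp0, Rplp1 and Rplp2. Rplp0 had 1492 and 1037 CPM in stimulated libraries and 679 and 474 CPM in controls, a log2 change of 1.13 ± 0.25 (edgeR adjusted p = 0.015). Rplp2 had 168 and 145 CPM in stimulated libraries and 98.1 and 58.9 CPM in controls, a log2 change of 0.99 ± 0.25 (edgeR adjusted p = 0.025, and 0.096 without stimulated library 1). Rplp1 had 895 and 476 CPM in stimulated libraries and 435 and 169 CPM in controls, a log2 change of 1.18 ± 0.61 that did not pass (edgeR adjusted p = 0.225). With 1 library left out the log2 change of Rplp1 ran from 0.65 to 2.02, the highest being without control library 1. The Rplp1 groups did not overlap, yet within each group library 1 was far above library 2.

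For 5 genes the set held a paralog, a second gene for a closely related protein. Rpl39l, on the count tables' chromosome 16 at chr16:10170226-10174911, is the paralog of Rpl39 and is known in mice for its expression in male germ cells. Rpl39l had 13.1 and 11.2 CPM in stimulated libraries and 35.1 and 28.8 CPM in controls, a log2 change of -1.40 ± 0.18 (edgeR adjusted p = 0.0019). Both stimulated libraries were far below both controls. Rpl39, a small protein of the exit tunnel, had 157 and 113 CPM in stimulated libraries and 98.1 and 54.3 CPM in controls, a log2 change of 0.83 ± 0.32 that did not pass (edgeR adjusted p = 0.105), though it passed without control library 1 (0.0031). Per kilobase, the ratio of Rpl39l to Rpl39 was 0.144 and 0.170 in stimulated libraries and 0.618 and 0.916 in controls, a log2 difference of -2.27. No stretch of 50 bases of the Rpl39l coding transcript was found in a gene elsewhere.

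The other 4 paralogs rose. Rps27l, which is also known as a p53 target, had 115 and 96.9 CPM in stimulated libraries and 45.7 and 35.2 CPM in controls, a log2 change of 1.39 ± 0.18. Rps27 had only 1.74 and 2.41 CPM in stimulated libraries and 1.03 and 0.991 CPM in controls, a log2 change of 1.03 ± 0.33 (edgeR adjusted p = 0.048). That call was lost without any one of the libraries, with adjusted p values between 0.059 and 0.201. Rpl36al had 87.7 and 81.3 CPM in stimulated libraries and 38.7 and 32.8 CPM in controls, a log2 change of 1.24 ± 0.15. Rpl36a had 17.8 and 14.1 CPM in stimulated libraries and 4.55 and 4.24 CPM in controls, a log2 change of 1.86 ± 0.22. The ratio of Rpl36al to Rpl36a per kilobase was thus lower in both stimulated libraries, at 6.02 and 7.05, than in the controls, at 10.4 and 9.48. Of the 50-base coding stretches, 98.7% for Rps27 against 22.4% for Rps27l were also found in a gene elsewhere. The shares were 85.5% for Rpl36a and 63.3% for Rpl36al. The part of such sharing in the levels of each pair was not tested.

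Rpl7l1 had 252 and 216 CPM in stimulated libraries and 105 and 97.4 CPM in controls, a log2 change of 1.21 ± 0.15. Rpl7 had 377 and 279 CPM in stimulated libraries and 213 and 186 CPM in controls, a log2 change of 0.72 ± 0.18 (edgeR adjusted p = 0.024, and 0.069 without control library 2 and 0.124 without stimulated library 1). The ratio of Rpl7l1 to Rpl7 per kilobase was 0.690 and 0.798 in stimulated libraries and 0.509 and 0.539 in controls, so that it was higher in both stimulated libraries. Rpl22l1 had 6.14 and 7.18 CPM in stimulated libraries and 3.25 and 4.06 CPM in controls, a log2 change of 0.86 ± 0.25 (edgeR adjusted p = 0.037, and between 0.053 and 0.174 without any one of the libraries). Rpl22 rose by a log2 change of 0.70 ± 0.16 (edgeR adjusted p = 0.016, and 0.065 without control library 2 and 0.069 without stimulated library 1), and the ratio of the pair overlapped between the groups. These ratios were not tested beyond their spread. The share of 50-base coding stretches found in a gene elsewhere was 65.6% for Rpl22l1 and 24.5% for Rpl22. It was 9.19% for Rpl7l1 and 53.3% for Rpl7. Rpl3l had 3 and 4 counts in stimulated libraries and 16 and 12 counts in controls, a log2 change of -1.66 ± 0.58 that did not pass (edgeR adjusted p = 0.064), and Rpl10l had 1 and 0 counts in stimulated libraries and 1 and 0 counts in controls.

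**Figure D3:**
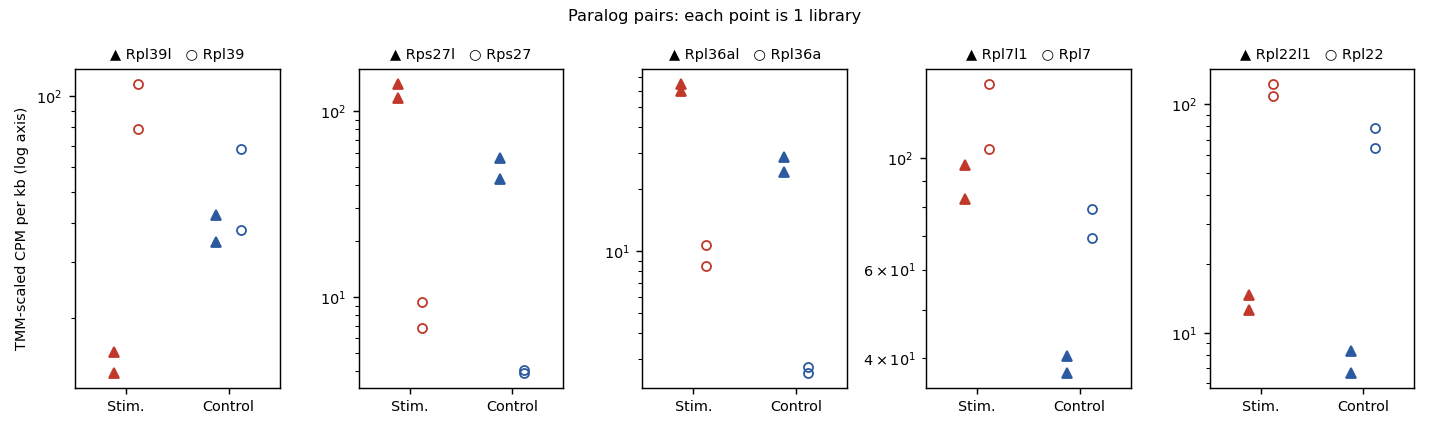
TMM-scaled CPM per kilobase on a log axis for 5 paralog pairs, with each library as a point, paralogs as filled triangles and their partners as open circles. Rpl39l is the only gene shown whose 2 stimulated libraries lie below its 2 controls.

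How much of each gene's sequence occurs elsewhere differed widely. The share of 50-base stretches of the coding transcript that also occur in the annotated transcripts of a gene elsewhere had a median of 52.8%, and ran from 0 for Rpl39l to 98.7% for Rps27. No 2 of the 82 genes shared such a stretch with each other. The 46 genes with at least 50% shared had a median level of 10.8 CPM per kb over all libraries, and the 36 genes below it had 102 CPM per kb. Across the 82 genes, the log2 level was lower where more was shared (Pearson r = -0.61, Spearman rho = -0.63). The log2 change was larger where more was shared (Pearson r = 0.43, Spearman rho = 0.42). These are descriptions across genes counted in the same 4 libraries, and the sources used here do not give how reads with several matches were counted.

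Both kinds of gene were higher in stimulated cells. Of the 36 genes with less than 50% shared, 25 rose, 1 fell and 10 did not pass, with a median log2 change of 0.91. Of the 46 genes with more shared, 37 rose and 9 did not pass, with a median of 1.12. Rps3 and Rpl8, with little shared, were among those that rose. The 242 listed pseudogenes named after 56 of the genes held 0.663% of the joint counts, but 50.02% for Rpl31, 49.2% for Rpl3, 44.8% for Rps13 and 30.3% for Rps12. Adding their counts to the genes left 62 called higher and 1 lower. It lowered the log2 change of Rpl3 to 1.04 (edgeR adjusted p = 0.0069), against 1.68 without them. Pseudogenes with other names were left out of this sum. For Rpl29, 3 listed pseudogenes carried its name, while 47 pseudogenes elsewhere shared a 50-base stretch with it. In 5 genes at least 25% of the stretches also lay in a gene annotated over the same place. The share was 69.4% for Rpl24, 59.0% for Rpl35, 57.4% for Rpl13a, 45.3% for Rpl5 and 32.9% for Rpl23a, and reads of such neighbours cannot be told apart here.

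**Figure D4:**
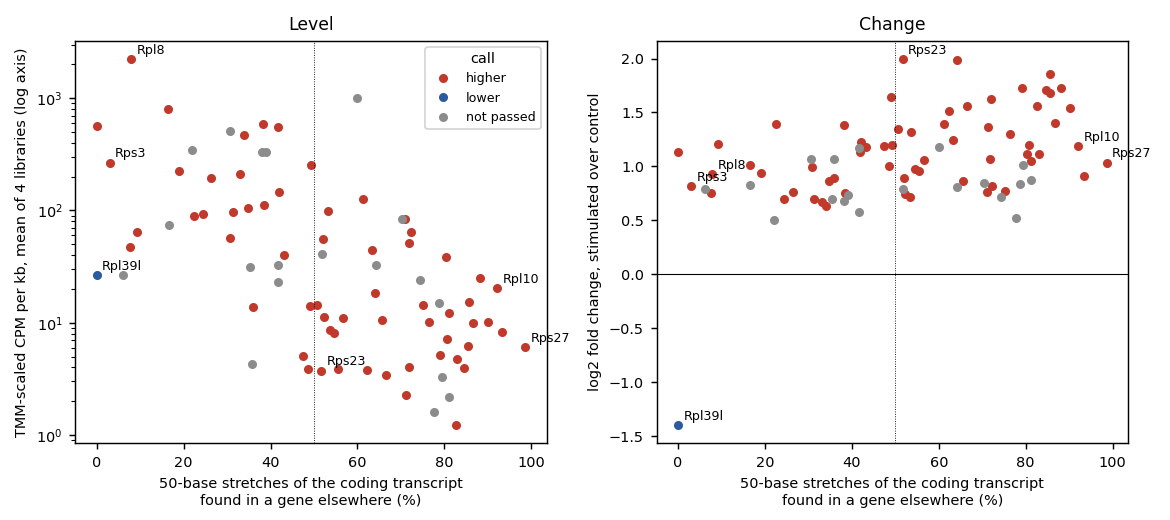
Mean TMM-scaled CPM per kilobase on a log axis (left) and log2 fold change of stimulated over control cells (right) against the percent of 50-base stretches of the coding transcript that occur in a gene elsewhere, with each of the 82 genes as a point coloured by its call. Genes with at least 50% shared have a median level of 10.8 CPM per kb and a median log2 change of 1.12, against 102 CPM per kb and 0.91 for the others.

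The start of transcription is shown for 8 genes that cover the range of responses. The family is known for a run of pyrimidines that opens its mRNAs. Each window is from RefSeq on build GRCm38.p6, with 25 bases on either side of RefSeq's annotated start, which need not be the start the count tables list. Capitals mark the longest run of C and T in the window, wherever it lies. In Rpl27, Rpl4, Rpl39 and Rpl39l that run ends before the annotated start. By this annotation it is then not part of the mRNA. In Rps23 it begins after the start. Rps23 (chr13:90923097-90923146, plus strand) and Rpl27 (chr11:101442220-101442269, plus strand) had the largest rises, and Rps6 (chr4:86857343-86857392, minus strand) is the S6 kinase substrate. Rpl15 (chr14:18270962-18271011, minus strand) and Rpl7a (chr2:26910782-26910831, plus strand) have long runs. Rpl4 (chr9:64173362-64173411, plus strand) is among the most abundant, and Rpl39 (chrX:37085198-37085247, minus strand) and Rpl39l (chr16:10170203-10170252, plus strand) are the pair whose log2 changes had opposite signs.
Rps23: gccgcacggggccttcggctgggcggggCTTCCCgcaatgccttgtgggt
Rpl27: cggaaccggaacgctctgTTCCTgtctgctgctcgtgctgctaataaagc
Rps6: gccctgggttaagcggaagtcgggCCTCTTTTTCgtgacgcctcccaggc
Rpl15: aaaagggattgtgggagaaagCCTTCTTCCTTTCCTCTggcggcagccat
Rpl7a: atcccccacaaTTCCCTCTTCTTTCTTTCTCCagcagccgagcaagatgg
Rpl4: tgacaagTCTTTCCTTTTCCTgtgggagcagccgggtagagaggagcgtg
Rpl39: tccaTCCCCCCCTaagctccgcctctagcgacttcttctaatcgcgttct
Rpl39l: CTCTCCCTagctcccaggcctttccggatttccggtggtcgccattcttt

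The marked run need not be a TOP motif. It measured 6 bases in Rps23, 5 in Rpl27, 10 in Rps6 and 17 in Rpl15. In Rpl7a it measured 21 bases, in Rpl4 14, in Rpl39 9 and in Rpl39l 8. Among these 8 genes the lengths did not follow the order of the log2 changes. Those were 1.995 for Rps23 and 1.99 for Rpl27 but 0.88 for Rpl7a and -1.40 for Rpl39l. The genes shown were picked to cover the range of responses, so no relation over the set can be read from them. Of the 82 genes, 62 had a RefSeq entry. A run of at least 8 pyrimidines was looked for within 50 bases on either side of a start. It was found for 52 of the 62 genes (83.9%), against 39.3% of the 27025 genes with an entry. The sequence CTTTCC was found on either strand, from 250 bases before to 50 bases after a start, for 33 genes (53.2%) against 29.3% of all. The sequence CCGGAAG, a form of the site that GABP is known to bind, was found for 26 genes (41.9%) against 9.93% of all, and AAGATGG, a form of the YY1 site, for 10 genes (16.1%) against 7.28%. These sequences can overlap a pyrimidine run, and each match is only a description of the letters. The 27025 genes were not limited to the 13838 tested here, so they include genes with few or no counts in these cells.

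Medians were also taken over the genes with and without each sequence. The median log2 change was 1.04 over the 26 genes with CCGGAAG and 0.99 over the 36 without it. It was 1.02 over the 33 genes with CTTTCC and 0.99 over the 29 without, and 1.02 over the 52 genes with a pyrimidine run and 0.84 over the 10 without. For AAGATGG it was 0.86 over 10 genes and 1.04 over 52. In 30 of the 82 genes the listed span holds snoRNA genes, 58 in all, which guide the modification of ribosomal RNA. Of these 30 genes, 22 rose, with a median log2 change of 0.98, and of the other 52 genes, 40 rose, with a median of 1.06. Both shares were near that of the whole set, in which 62 of 82 rose, against 17.5% of all genes tested.

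Genes that work with the ribosomal proteins were higher as well. Fau, which encodes a small subunit protein as a fusion, rose by a log2 change of 1.26 ± 0.15. Rack1, a protein bound to the small subunit, rose by 0.81 ± 0.22, and was no longer called without control library 2 (edgeR adjusted p = 0.094) or stimulated library 1 (0.114). Over all genes tested, 17.5% were called higher and 18.3% lower. Of 10 tested chaperones and importers of ribosomal proteins, 9 rose, with a median log2 change of 1.10. They included Heatr3, an importer of Rpl5, at 1.59 ± 0.15, Ltv1 at 1.61 ± 0.20 and Rrs1 at 1.25 ± 0.14, while Pdcd2l (0.39 ± 0.22) did not pass. Of 35 tested genes for making and assembling ribosomes, 28 rose and none fell, with a median of 1.42. Nop16 had 51.5 and 49.3 CPM in stimulated libraries and 11.1 and 11.2 CPM in controls, a log2 change of 2.17 ± 0.15. Rrp9 rose by 1.98 ± 0.14 and Dkc1, the pseudouridine synthase of ribosomal RNA, by 1.88 ± 0.15, while Ubtf, a factor for transcription by RNA polymerase I, changed by 0.14 ± 0.16 and did not pass.

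Other mRNAs with a TOP motif and the proteins of the mitochondrial ribosome also tended to be higher. Of 17 such TOP mRNAs, 13 rose and none fell, with a median log2 change of 0.67. The share called higher over all genes tested was 17.5%. Npm1, a nucleolar chaperone, rose by 1.79 ± 0.15, Hnrnpa1 by 1.70 ± 0.24 and Eef1d by 1.30 ± 0.15, while Eef2, the translocation factor, changed by 0.25 ± 0.22 and did not pass. The count of this list fell to 8 without stimulated library 1. Of 77 genes for mitochondrial ribosomal proteins, 60 rose and none fell, with a median of 0.79. Fewer of them were called higher in each fit with 1 library left out. Those that rose included Mrpl17 (1.46 ± 0.16), Mrpl20 (1.36 ± 0.15) and Mrps22 (1.27 ± 0.13), while Mrpl9 (0.21 ± 0.14) did not pass.

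Among the regulators, genes moved in both directions. Of 20 tested genes of the mTOR pathway and of TOP mRNA control, 7 rose, 3 fell and 10 did not pass, with a median log2 change of 0.25. Only 4 were called higher without control library 1 or without stimulated library 2, and 1 lower without control library 1 or without stimulated library 1. Eif4e, the cap-binding protein, rose by 1.08 ± 0.14 and Cnbp by 0.95 ± 0.17, Pdcd4, an inhibitor of translation, fell by 1.15 ± 0.19, and Akt1 changed by -0.22 ± 0.15 without passing. Of 12 transcription factors known to act on ribosomal protein genes or on MYC, 2 rose, 2 fell and 8 did not pass, shares near the 17.5% called higher and 18.3% called lower over all genes tested. Only 1 was called higher without any one of control library 1, stimulated library 1 and stimulated library 2, and 4 with the length and GC correction. Myc had 50.2 and 47.6 CPM in stimulated libraries and 20.01 and 12.6 CPM in controls, a log2 change of 1.58 ± 0.23. Mxd4 and Mnt, which compete with MYC for MAX, fell by 1.77 ± 0.14 and 1.13 ± 0.19, and Sp1 (-0.38 ± 0.15) did not pass. Of 9 tested S6 and RSK kinases, which share the Rps6k symbol but are no ribosomal proteins, 2 rose and 2 fell, again near the shares of all genes tested. Only 1 was called higher without control library 1 or without stimulated library 2, and 4 with the length and GC correction. Rps6ka6 rose by 1.10 ± 0.22, Rps6ka2 fell by 1.09 ± 0.15, Rps6ka5 fell by 1.25 ± 0.26, and Rps6ka3 (-0.45 ± 0.53) did not pass.

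**Figure D5:**
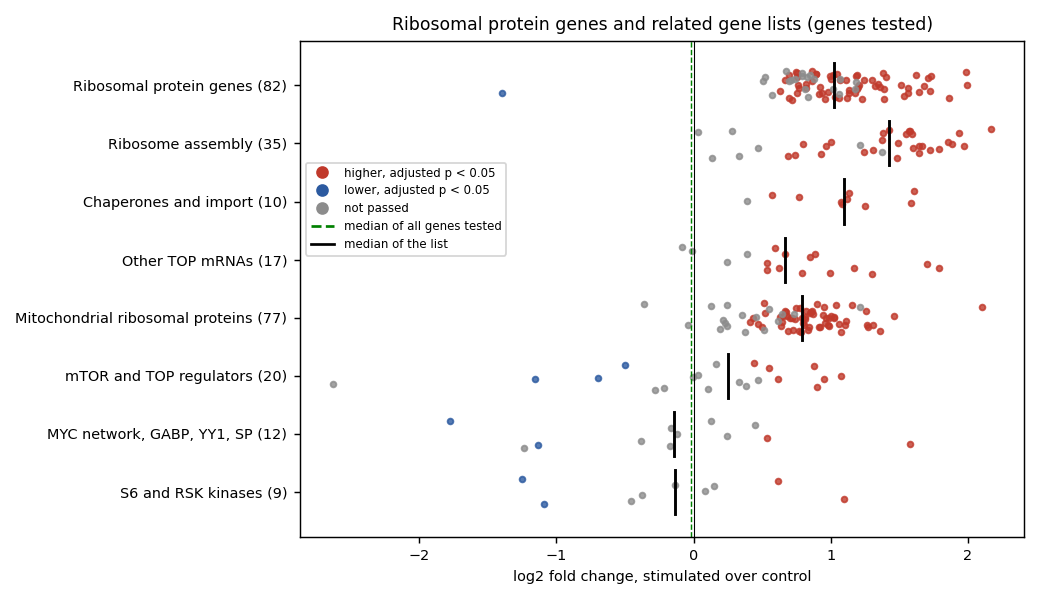
Log2 fold change of stimulated over control cells for the ribosomal protein genes and 7 related lists, with each tested gene as a point coloured by its call, the median of each list as a black bar and the median of all genes tested as a dashed line. The medians are 1.03 for ribosomal protein genes, 1.42 for ribosome assembly, 0.79 for mitochondrial ribosomal proteins and 0.25 for mTOR and TOP regulators.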

How the data were processed

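RNA-seq was done on 4 libraries of Mnk3 cells. The deposited tables list a whole-number count per gene, with no normalisation per the file headers and values. The deposited CPM equals the count over the library's sum, and the deposited RPKM equals that CPM per kilobase of listed length, as checked on the values; neither was used further. The submitters' processing notes name STAR, Subread and featureCounts. Not given in the sources used here are their versions, the build, the annotation, the use of strand and the treatment of reads with several matches. Of the listed identifiers, 40340 matched GENCODE M21, and gene coordinates follow the count tables.

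Counts were compared with the quasi-likelihood test of edgeR 4.0.16 (R 4.3.3, limma 3.58.1), with filterByExpr, TMM, robust estimation and no term besides treatment, and p-values adjusted by Benjamini-Hochberg over 13838 genes. All 82 genes of the set passed the filter. The common biological coefficient of variation was 18.4%. The fit was tested on simulated data. The labels do not say that replicates came from separate cultures, so the p-values reflect only how much these libraries vary, which may be technical. Wilson intervals cover counting error only. Listed lengths span all annotated exons of a gene.

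The genes, the lists and the naming rule were chosen with earlier results of these data known. The rule took the 12 largest rises and the largest falls among genes past the threshold, paralog pairs, stalk genes, Rpsa, Rpl5, Rpl11, Rpl23, Rps6, Rps3, Rpl13a and the 5 highest and 5 lowest per kilobase. From each other list it took the 3 smallest adjusted p past the threshold and the most abundant gene not past it. Alternatives were other scalings, filters and tools (DESeq2 1.42.0, limma-voom), non-robust estimation, a threshold of 0.01, a length and GC correction, a block, added pseudogene counts and each library left out. Sharing was found from annotated transcripts, in stretches of 50 bases. Genes that the rule takes but the text omits are not reported here. Scripts ran in Python 3.11.15.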

Additional observations from a re-analysis of the deposited data

How the results depend on the processing

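With all 4 libraries and a threshold of 0.05, the alternatives called 54 to 80 genes of the set higher and 1 lower, and 43 genes were called higher in every one of the 16 other fits, those without a library included. At a threshold of 0.01, 38 were called higher, against 8.99% of all genes tested. With 1 library left out, 48 to 72 were called higher, the median log2 change was 0.889 to 1.228 and the difference in share of counts 0.623 to 0.914 percentage points. The replicate block for the kind of title called 80 genes of the set higher and 1 lower. The pairing rests on titles alone: the differences of library 1 from library 2 correlated between groups at 0.49 over all genes and 0.82 over the set. Of the named genes that had not passed, the block called Rpl13a, Rpl19, Rpl39, Rpl7a, Rplp1 (edgeR adjusted p = 6.0e-20) and Rps16 (3.9e-05). It also called 4 transcription factors higher and 4 lower and 4 S6 and RSK kinases lower. With 4 libraries the block leaves each gene little variation of its own to estimate. These p-values therefore lean on variation pooled across genes. A length and GC correction called 72 genes of the set higher, with 3392 genes higher and 2109 lower overall against 2417 and 2533, and moved the median of all genes by 0.14. Total-count scaling called 54 and moved that median by -0.092. Of 697 alternative values for 41 named genes of the set, 642 kept direction and call, 34 lost the call, 19 gained it and 2 changed sign. The sign changes were those of Rps16, whose log2 change with 1 library left out was -1.04 to 2.14, and -0.16 without control library 2. Rps27 also lost its call with upper quartile scaling, total-count scaling, DESeq2, limma-voom and the length and GC correction, and Rpl22l1 with total-count scaling. In all, 4 values of genes outside the set changed sign, none of them called: Akt1 (0.14 with the length and GC correction), and, with 1 library left out, Eef2 (-0.052 to 0.52), Rps6ka3 (-1.07 to 0.12) and Ubtf (-0.012 to 0.30). The cause of these changes was not tested. Fits without a library leave 1 sample in a group, assumed to vary like the other group. Over all genes, the block called 3986 higher and 4000 lower, and the fit without stimulated library 1 called 1593 higher and 1665 lower. The split by shared sequence and the refits of Rps16 and of the other lists were chosen after seeing the data. The least counted gene, Rpl23a at 105 counts, had a standard error of 0.38, against a median of 0.22 over the set.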
